A study of Mus musculus with 18 samples.

Results

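The genes described here encode the proteasome, its regulators and its assembly chaperones. A gene was taken as a member if its mouse symbol is Psm followed by a letter from a to g, a number and at most 1 more letter. Each member was read from 1 probe set, the one with the highest mean log2 signal over the 18 arrays among those annotated to that gene alone. The rule found 47 genes among the 18193 genes with a probe set of their own, and 100 probe sets were annotated to a single member. Of 49 reference genes whose symbols fit the rule, Psme2 and Psme2b were left out because their probe set is shared. Tests covered the probe sets that exceeded the 40th percentile of signal of the array in question on 3 or more arrays, and 46 of the 47 members passed. The member that did not was Psmb11, the catalytic subunit of the thymus proteasome, whose probe set was above that percentile on 0 arrays.

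The proteasome degrades proteins that carry ubiquitin chains. Its 20S core is a stack of outer alpha rings, which form the gate, and inner beta rings, whose catalytic members are Psmb5, Psmb6 and Psmb7, and a 19S cap of ATPases and other subunits binds and unfolds the substrates. In cells exposed to interferon and in leukocytes, Psmb8, Psmb9 and Psmb10 take the places of the constitutive catalytic subunits and form the immunoproteasome. Male germ cells in meiosis make a further form, the spermatoproteasome, in which Psma8 takes the place of its close relative Psma7 in the alpha ring and the activator PA200, encoded by Psme4, often caps the core.

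Whole testes of mice homozygous for repro9, an allele of the transcription factor gene Mybl1, were compared with wild-type testes at 14 and 17 days post partum (dpp). There were 5 arrays of repro9/repro9 testes and 3 of wild type at 14 dpp, and 5 arrays of each genotype at 17 dpp. The ages were chosen, per the series' design text, to enrich early to middle pachytene spermatocytes at 14 dpp and late pachytene to diplotene spermatocytes at 17 dpp. Total RNA was labelled as biotinylated cRNA and hybridised to Affymetrix whole-genome mouse arrays, whose values are linear signal intensities. The labels do not tie an array to a single animal, so the p-values measure the spread between arrays, which may be technical. The strain and the littermate status of the mice are not given in the sources used here.

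Mybl1 itself was low on every mutant array. Its signal was 249, 233, 85.1, 68.1 and 95.6 in mutant testes at 14 dpp, against 512, 775 and 651 in wild-type testes. The 17 dpp values were 293, 278, 123, 83.4 and 154 in mutant testes, against 1076, 1475, 2309, 1419 and 3959 in wild-type testes. The groups did not overlap at either age, and limma called the difference at 17 dpp (−3.46, adjusted p = 5.25e-05) but not at 14 dpp (−2.33, adjusted p = 0.112). The tissue label was checked against markers: of 8 genes typical of Sertoli cells, the somatic cells of the tubules, all 8 were above the 40th percentile on at least 3 arrays, as were all 8 pachytene spermatocyte markers. Tnp2, a marker of later spermatids, was below it on every array. Of the 5 round spermatid markers, Tnp2 among them, 4 were above it on at least 3 arrays.

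The arrays fell into 3 sets, told apart by the ratio of the β-actin 3′ to 5′ control probe sets, a measure of how far the labelled RNA reaches from its 3′ end. The sample labels name no batch, so the sets were inferred from that ratio and their origin is not known. Set 1 held mutant and wild-type arrays of both ages, with ratios of 2.31 to 2.92, set 2 held 14 dpp arrays alone, with ratios of 1.45 to 1.49, and set 3 held 17 dpp arrays alone, with ratios of 102.6 to 125.1. At 14 dpp, set 1 held 2 mutant and 2 wild-type arrays and set 2 held 3 mutant arrays and 1 wild-type array. At 17 dpp, set 1 held 2 mutant arrays and 1 wild-type array, and set 3 held 3 mutant arrays and 4 wild-type arrays. Within 17 dpp mutant testes 36 of the 47 members were lower in set 3 than in set 1, 19 of them by over 2 on the log2 scale, with a median difference of −1.38. Within 17 dpp wild-type testes 33 of the 47 were lower, 19 of them by over 2, with a median of −1.12. The differences ran from −5.54 for Psmd13 to 1.56 for Psma5 in mutants and from −5.57 for Psmd2 to 1.58 for Psma5 in wild type. The spread between arrays followed: the median SD of log2 signal over the 46 tested members was 0.93 in mutant and 0.74 in wild-type testes at 17 dpp, and 0.16 in mutant and 0.13 in wild-type testes at 14 dpp. It ran from 0.2 for Psmc6 to 3.25 for Psmd8 in mutants and from 0.11 for Psmd1 to 2.55 for Psmd2 in wild type at 17 dpp, where 21 members in mutants and 19 in wild type had an SD over 1, against 0 members in either genotype at 14 dpp. The calls of members by genotype at 17 dpp are therefore given also with the array set as a block or within each set.

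**Figure D1:**
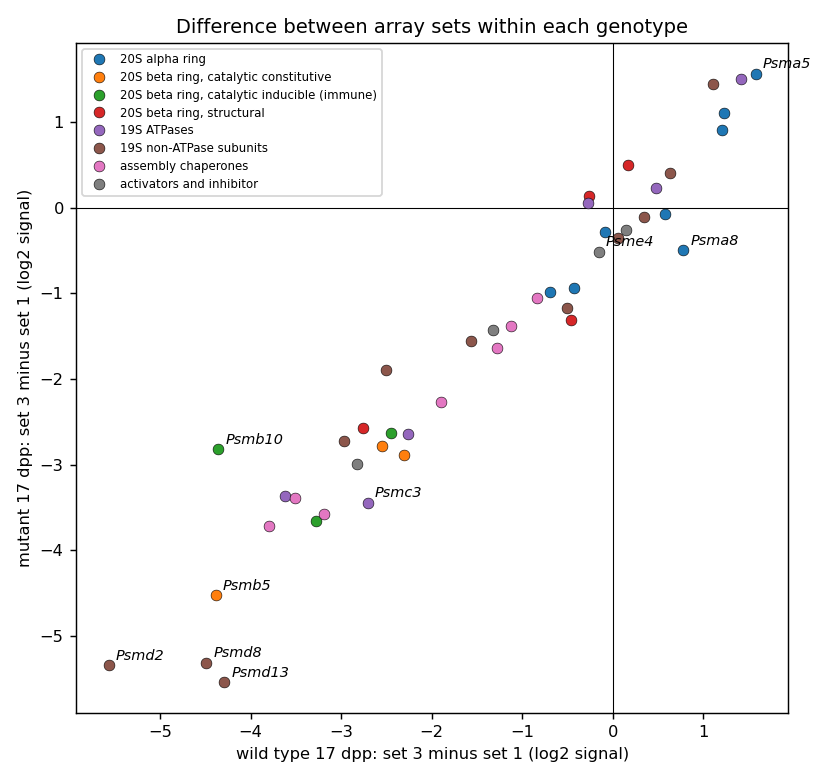
Mean log2 signal of each of the 47 members on set 3 arrays minus that on set 1 arrays at 17 dpp, in mutant testes (vertical axis) and in wild-type testes (horizontal axis), coloured by role. Most members lie below 0 on both axes, with Psmd2, Psmd8, Psmd13 and Psmb5 the farthest down and Psma5 at the upper end.

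At 14 dpp the question was which members already differed between genotypes in early to middle pachytene. Psma8 alone was called, that is, had a Benjamini-Hochberg adjusted p under 0.05 in limma's moderated test, 1 of 46 members tested, where 0.196% of all 34764 probe sets were called. The median genotype difference of the members was −0.03 on the log2 scale, against 0.06 over all probe sets. A block for the array set again left Psma8 as the 1 member called, against 0.368% of all probe sets. At 17 dpp 2 of 46 members were called, Psma8 and Psme4, both lower in mutants, where 5.33% of all probe sets were called, so the share of members called was near the background. The members' median was 0.08, against 0.25 over all probe sets, which falls to 0.11 when the arrays are set to a common median. With the block, 8 of 46 members were called at 17 dpp, 6 lower in mutants (Psma8, Psmb6, Psmc3, Psmd6, Psme4 and Psmf1) and 2 higher (Psmb10 and Psmd10), against 18.8% of all probe sets.

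**Figure D2:**
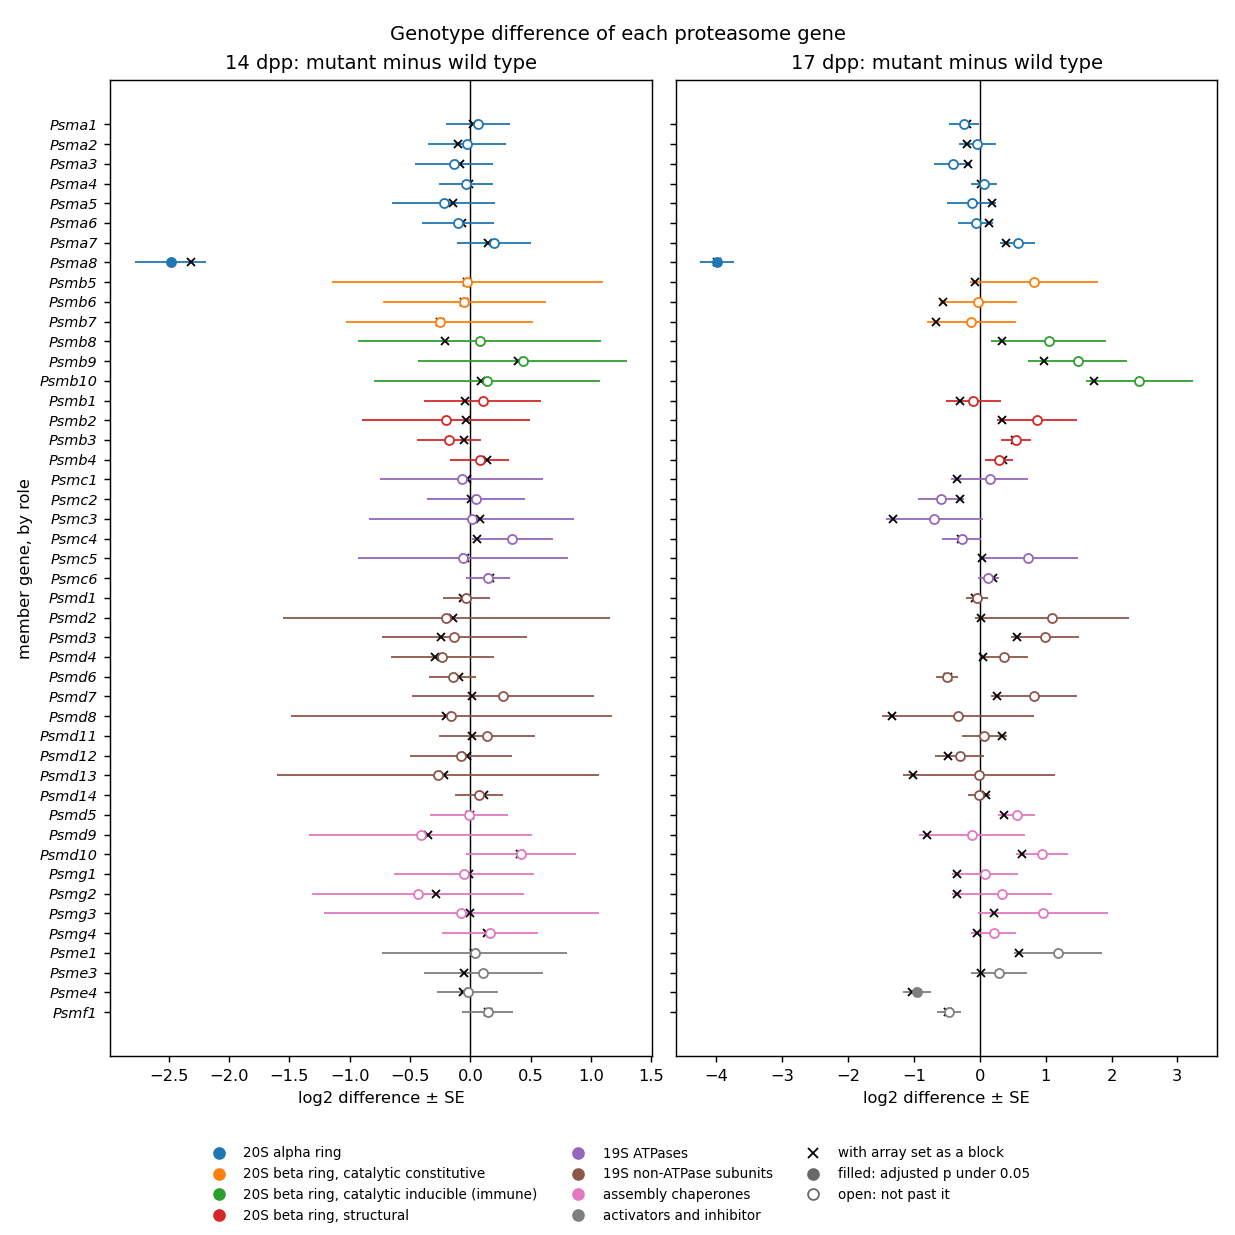
Mutant minus wild-type difference of log2 signal at 14 dpp (left) and 17 dpp (right) for the 46 tested members, ordered by role, with bars of 1 standard error. Filled points have an adjusted p under 0.05, and crosses give the difference with the array set as a block. Psma8 lies far left of the others at both ages (−2.48 and −3.98), Psme4 is the other filled point at 17 dpp, and Psmb10 lies farthest right there (2.42).

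Psma8, the alpha subunit of the spermatoproteasome, has 1 probe set annotated to it and lies on chromosome 18. At 14 dpp its signal was 705, 821, 571, 478 and 480.0 in mutant testes, against 3301, 4702 and 2401 in wild-type testes. Its signal at 17 dpp was 1358, 1098, 773, 871 and 965 in mutant testes, against 10225, 18049, 16858, 13484 and 22853 in wild-type testes. Every mutant array lay below every wild-type array at both ages. The log2 difference was −2.48 ± 0.29 (SE) at 14 dpp, 5.59-fold lower in mutants, with a limma adjusted p of 3.65e-04. At 17 dpp it was −3.98 ± 0.26, 15.8-fold lower in mutants, with an adjusted p of 1.72e-08. Within the array sets Psma8 differed by −2.37 (adjusted p = 4.07e-04) in set 1 and −2.24 (adjusted p = 0.00857) in set 2 at 14 dpp, and by −3.07 (adjusted p = 5.25e-05) in set 1 and −4.34 (adjusted p = 6.75e-09) in set 3 at 17 dpp. In these whole testes, fewer cells that make a transcript and less of it per cell cannot be told apart.

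The Psma8 signal was higher at 17 than at 14 dpp in wild type, while in mutants the call depended on the processing. In mutant testes the 17 minus 14 dpp difference was 0.73 ± 0.26 (adjusted p = 0.0906), and 0.35 ± 0.27 with the block (adjusted p = 0.794). In wild-type testes it was 2.23 ± 0.29 (adjusted p = 2.78e-04), and 2.01 ± 0.30 with the block (adjusted p = 6.00e-04). Within set 1 the mutant difference was 0.68 ± 0.25 (adjusted p = 0.381). Psma8 was called for age in mutants with quantile normalization and without the arrays of set 3. The difference of the genotype effect between ages was −1.50 ± 0.39, with an adjusted p of 0.176, and limma called 0 of 46 members by that test, against 0.204% of all probe sets, with 3 members at an unadjusted p under 0.05. With the block it was −1.66 ± 0.31, with an adjusted p of 0.0114, and Psma8 was then the 1 member called, against 1.2% of all probe sets. Within set 1, the set that holds both ages, it was −0.69 ± 0.39 (adjusted p = 1), and without the arrays of set 3 it was −0.58 (adjusted p = 0.692), with neither called. The mutant signal at 17 dpp also lay below the wild-type signal at 14 dpp on every array.

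Markers of pachytene spermatocytes, the germ cells in which Psma8 is known to be made, moved with it. Of 8 such markers 6 were called lower in mutants at 14 dpp, with a median log2 difference of −2.81, and 7 at 17 dpp, with a median of −4.89 (with the block also 7, with a median of −5.04). Their summed signal ran from 10087 to 12705 in mutant and from 19100 to 25485 in wild-type testes at 14 dpp, and from 10338 to 39404 in mutant and from 60363 to 140459 in wild-type testes at 17 dpp. No defining marker of the 8 was below the 40th percentile on every array. The part of cell composition in the Psma8 result was not tested.

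Psma7 is the alpha subunit of the proteasome of other cells, whose place Psma8 takes, and lies on chromosome 2. At 14 dpp its signal was 4958, 4421, 5104, 5843 and 5712 in mutant testes, against 4437, 4371 and 4767 in wild-type testes. At 17 dpp it was 4664, 4988, 2967, 1583 and 3101 in mutant testes, against 3163, 2374, 1976, 2055 and 1500.2 in wild-type testes. The groups overlapped at both ages, and at 17 dpp the set 1 arrays held the highest values of each genotype. Psma7 differed by 0.20 ± 0.31 at 14 dpp (adjusted p = 1) and by 0.58 ± 0.27 at 17 dpp (adjusted p = 0.244). With the block the 17 dpp difference was 0.40 ± 0.17 (adjusted p = 0.109), and without mutant replicate 4, the lowest mutant array, it was 0.83 with an adjusted p of 0.0329.

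The log2 ratio of Psma8 to Psma7 within an array is free of that array's scaling and was compared between genotypes; it gives no level of one gene against the other, since each probe set has its own brightness. At 14 dpp the ratio was −2.81, −2.43, −3.16, −3.61 and −3.57 on mutant arrays, against −0.43, 0.11 and −0.99 on wild-type arrays. At 17 dpp it was −1.78, −2.18, −1.94, −0.86 and −1.68 on mutant arrays, against 1.69, 2.93, 3.09, 2.71 and 3.93 on wild-type arrays. The genotypes did not overlap at either age. The ratio averaged −3.12 ± 0.50 in mutants and −0.44 ± 0.55 in wild type at 14 dpp (SD, n = 5 and 3), a difference of −2.68. A two-sided exact permutation test over the 8 arrays gave p = 0.0179, the smallest that its 56 permutations can give, and the same value after adjustment over the 2 ages. At 17 dpp the ratio averaged −1.69 ± 0.50 in mutants and 2.87 ± 0.80 in wild type (SD, n = 5 each), a difference of −4.56, with an exact permutation p = 0.00794, the smallest that 252 permutations can give, and 0.0159 after adjustment. Paired by replicate number, the 3 pairs at 14 dpp gave −2.36 with an exact p = 0.25, the smallest that 3 pairs can give. Permuting within array sets, the difference was −2.46 at 14 dpp (exact p = 0.0417) and −4.39 at 17 dpp (exact p = 0.00952).

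**Figure D3:**
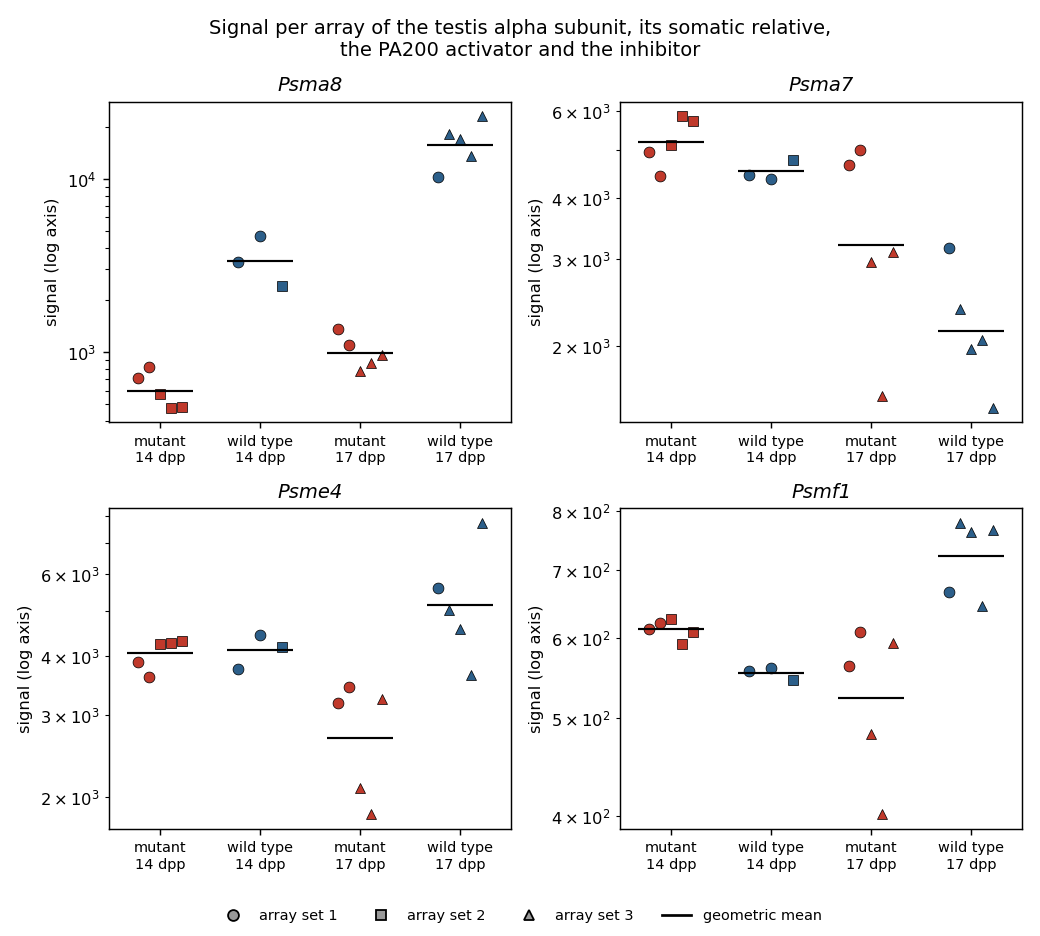
Signal per array on log axes of Psma8, Psma7, Psme4 and Psmf1 in mutant and wild-type testes at 14 and 17 dpp, with the array set as the point shape and the geometric mean as a line. Psma8 is lower in mutants on every array at both ages, Psma7 overlaps, and Psme4 and Psmf1 lie below wild type in mutants at 17 dpp alone.

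Psme4 encodes PA200, the activator tied to the acetylated histones that spermatids degrade, and was the other member called at 17 dpp. At 14 dpp its signal was 3893, 3613, 4246, 4277 and 4307 in mutant testes, against 3764, 4448 and 4178 in wild-type testes, and the groups overlapped. The 17 dpp values were 3172, 3434, 2084, 1833 and 3236 in mutant testes, against 5612, 5019, 4567, 3654 and 7724 in wild-type testes, and every mutant array lay below every wild-type array. The 17 dpp difference was −0.95 ± 0.22, 1.93-fold lower in mutants, with an adjusted p of 0.0122, and −1.02 ± 0.18 with the block (adjusted p = 7.76e-04). Within the sets it was −0.77 (adjusted p = 0.42) in set 1 and −1.12 (adjusted p = 0.00458) in set 3. Its genotype effect was not called as different between the ages (−0.93 ± 0.33, adjusted p = 0.582, and 0.121 with the block). Psme4 has 6 probe sets, and the call rests on the brightest: the next brightest pair gave −0.82 (adjusted p = 0.293) and −0.56 (adjusted p = 0.376), called with the block at −1.11 (adjusted p = 0.00771) and −0.73 (adjusted p = 0.00163), while the 3 dimmest gave 0.51, −0.27 and −0.29. The mean of all 6 gave −0.40 (adjusted p = 0.379), and a fit of the 17 dpp arrays alone gave an adjusted p of 0.132.

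Psmf1 encodes PI31, a protein that binds the core and was named as an inhibitor of it. At 14 dpp its signal was 612, 619.6, 626, 591 and 608 in mutant testes, against 556, 559 and 545 in wild-type testes, with every mutant array above every wild-type array. Its signal at 17 dpp was 562, 608, 482, 402 and 593 in mutant testes, against 666, 778, 763, 644 and 766 in wild-type testes, with every mutant array below. These differences were 0.14 ± 0.21 (adjusted p = 1) and −0.46 ± 0.18 (adjusted p = 0.164), and the second was −0.48 ± 0.15 with the block (adjusted p = 0.0271). Within set 1 Psmf1 differed by −0.19 (adjusted p = 0.919) and within set 3 by −0.60 (adjusted p = 0.0391), and the blocked call was lost without mutant replicate 3, mutant replicate 4 or wild-type replicate 3. The other 3 probe sets of Psmf1 gave 0.56, −0.82 and 0.04 at 17 dpp, none of them called. At 14 dpp 5 members had groups that did not overlap, Psmb9, Psmd10 and Psmf1 above and Psma8 and Psmd9 below, while 2.37% and 3.08% of all probe sets lay wholly above and below. At 17 dpp Psma8, Psme4 and Psmf1 lay wholly below and no member wholly above, while 3.31% and 1.54% of all probe sets did.

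Promoter windows of 250 bases before to 50 bases after the start, from RefSeq (GRCm38.p6), matched 39 of the 47 members in 41 windows, and not Psma8, Psmb1, Psmb2, Psmb7, Psmc3, Psmd3, Psmd7 or Psmg2. They were searched on both strands for AACNG, the core that MYB proteins such as the product of Mybl1 bind, for its longer form TAACNG, for CCGGAAGT, which ETS factors bind, for CCAAT, and for TGACNNNGC, the antioxidant element through which Nrf factors are known to act on proteasome genes. Every TAACNG match also holds an AACNG match, and overlap between other motifs was not counted. AACNG was in 36 of the 41 windows (87.8%), against 80.3% of 32851 windows of all genes, TAACNG in 7 (17.1%, against 23.3%), CCAAT in 14 (34.1%, against 37.4%) and TGACNNNGC in 6 (14.6%, against 12.4%). CCGGAAGT was in 10 windows (24.4%), against 3.89% of all windows. Those 10 belong to Psma6 (1 of its windows), Psmc1, Psmc2 (both of its windows), Psmd6, Psmd12, Psmd13, Psme3, Psme4 and Psmg3. A match is a description of these letters and shows no binding. The windows of Psme4 (chr11:30771525-30771824, plus strand), of Psmf1 (chr2:151741261-151741560, minus strand) and of Psma7 (chr2:180042415-180042714, minus strand) are printed because the first pair belong to the genes that lay wholly below wild type at 17 dpp and the last to the relative of Psma8. Each runs 5′ to 3′ on the gene's strand, and capitals mark AACNG on either strand and CCGGAAGT: Psme4 has 1 of each, Psmf1 has 1 AACNG, and Psma7 has neither.
Psme4: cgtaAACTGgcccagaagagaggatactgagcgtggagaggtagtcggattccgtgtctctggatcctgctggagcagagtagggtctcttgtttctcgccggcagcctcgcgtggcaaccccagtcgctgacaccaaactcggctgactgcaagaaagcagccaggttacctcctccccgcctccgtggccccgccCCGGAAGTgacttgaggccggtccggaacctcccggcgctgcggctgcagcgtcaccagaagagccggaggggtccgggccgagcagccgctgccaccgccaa
Psmf1: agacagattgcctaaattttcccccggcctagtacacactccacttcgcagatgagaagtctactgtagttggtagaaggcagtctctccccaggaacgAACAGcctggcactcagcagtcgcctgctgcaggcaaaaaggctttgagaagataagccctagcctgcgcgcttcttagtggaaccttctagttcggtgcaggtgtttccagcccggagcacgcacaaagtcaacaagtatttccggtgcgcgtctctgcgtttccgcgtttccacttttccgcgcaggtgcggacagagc
Psma7: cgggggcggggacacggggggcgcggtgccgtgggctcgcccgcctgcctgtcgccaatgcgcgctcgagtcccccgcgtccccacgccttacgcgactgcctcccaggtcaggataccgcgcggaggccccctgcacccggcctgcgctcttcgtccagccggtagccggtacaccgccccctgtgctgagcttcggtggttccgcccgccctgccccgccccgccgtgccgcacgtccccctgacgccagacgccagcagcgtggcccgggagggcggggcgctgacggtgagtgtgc

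The constitutive and the immune catalytic subunits were compared next. At 14 dpp none of the 6 was called, the constitutive differences ran from −0.25 to −0.02 and the immune ones from 0.08 to 0.43. At 17 dpp none was called either, and the differences ran from −0.13 to 0.82 for the constitutive subunits and from 1.04 to 2.42 for the immune ones. With the block the constitutive subunits ran from −0.66 to −0.08, with Psmb6 called lower in mutants, and the immune ones from 0.34 to 1.74, with Psmb10 called higher.

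Psmb10, which takes the place of Psmb7, showed the largest positive genotype difference of any member at 17 dpp. Its signal was 601, 555, 656, 769.5 and 610.4 in mutant testes at 14 dpp, against 545, 568 and 617 in wild-type testes, and the groups overlapped. At 17 dpp it was 929, 610.4, 93.2, 109 and 119 in mutant testes, against 487, 17, 12.7, 23.7 and 62 in wild-type testes. The groups overlapped over all arrays, while within set 1 and within set 3 every mutant array lay above every wild-type array. The 17 dpp difference was 2.42 ± 0.81 (adjusted p = 0.0973), and 1.74 ± 0.36 with the block (adjusted p = 0.00273). Within set 1 it was 0.63 (adjusted p = 0.846), and within set 3 it was 2.17 (adjusted p = 0.00281). All 4 wild-type arrays of set 3 were below their own 40th percentile for this probe set.

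Psmb9, which takes the place of Psmb6, lay above wild type on every mutant array at 14 dpp and overlapped at 17 dpp. Its 14 dpp signal was 137, 151, 139.9, 174 and 148 in mutant testes, against 98.3, 114 and 121 in wild-type testes (0.43 ± 0.87, adjusted p = 1). Its 17 dpp signal was 214, 131, 15.4, 20.2 and 63.7 in mutant testes, against 77.9, 53.5, 5.29, 8.45 and 17.5 in wild-type testes (1.48 ± 0.75, adjusted p = 0.289; with the block 0.97 ± 0.55, adjusted p = 0.228). Psmb8, the counterpart of Psmb5, was dim throughout. Its 14 dpp signal was 85.7, 32.2, 113, 190.5 and 101 in mutant testes, against 80.9, 65.9 and 118 in wild-type testes, and its groups overlapped. Its 17 dpp signal was 134, 119, 9.56, 7.82 and 13.2 in mutant testes, against 82.2, 12.6, 6.24, 8.06 and 8.06 in wild-type testes, a difference of 1.04 ± 0.87 (adjusted p = 0.551) and of 0.34 ± 0.44 with the block. The arrays of set 1 held the highest 17 dpp values of Psmb8 in each genotype, and on all 7 arrays of set 3 both Psmb8 and Psmb9 were below the 40th percentile.

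Of the constitutive subunits, Psmb5 carries the chymotrypsin-like, Psmb6 the caspase-like and Psmb7 the trypsin-like activity of the core. Psmb5 gave 4423, 3808, 269.7, 137 and 154 in mutant testes at 17 dpp, against 4038, 269, 228, 104 and 219 in wild-type testes, a difference of 0.82 ± 0.97 and of −0.08 ± 0.23 with the block (adjusted p = 0.849). Psmb6 gave 6939, 5009, 862, 658 and 882 in mutant testes at 17 dpp, against 6441, 1486, 1237, 1115 and 1414 in wild-type testes. Its difference was −0.02 ± 0.58, and −0.55 ± 0.15 with the block (adjusted p = 0.013), −0.13 (adjusted p = 0.949) within set 1 and −0.72 (adjusted p = 0.011) within set 3. In set 3 every mutant array lay below every wild-type array for Psmb6. Psmb7 gave 5588, 5672, 789, 385 and 1820.3 in mutant testes at 17 dpp, against 7933, 2768, 1579, 613 and 1281 in wild-type testes, a difference of −0.13 ± 0.67 and of −0.66 ± 0.36 with the block (adjusted p = 0.212). In all 3 genes the set 1 arrays stood above the set 3 arrays of both genotypes. At 14 dpp the groups were close: Psmb5 ran from 2919 to 3457 in mutant and from 3135 to 3278 in wild-type testes, and Psmb6 from 4206 to 4927 in mutant and from 4397 to 4906 in wild-type testes. Psmb7 ran from 8976 to 12360.3 in mutant and from 12225 to 13805 in wild-type testes.

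**Figure D4:**
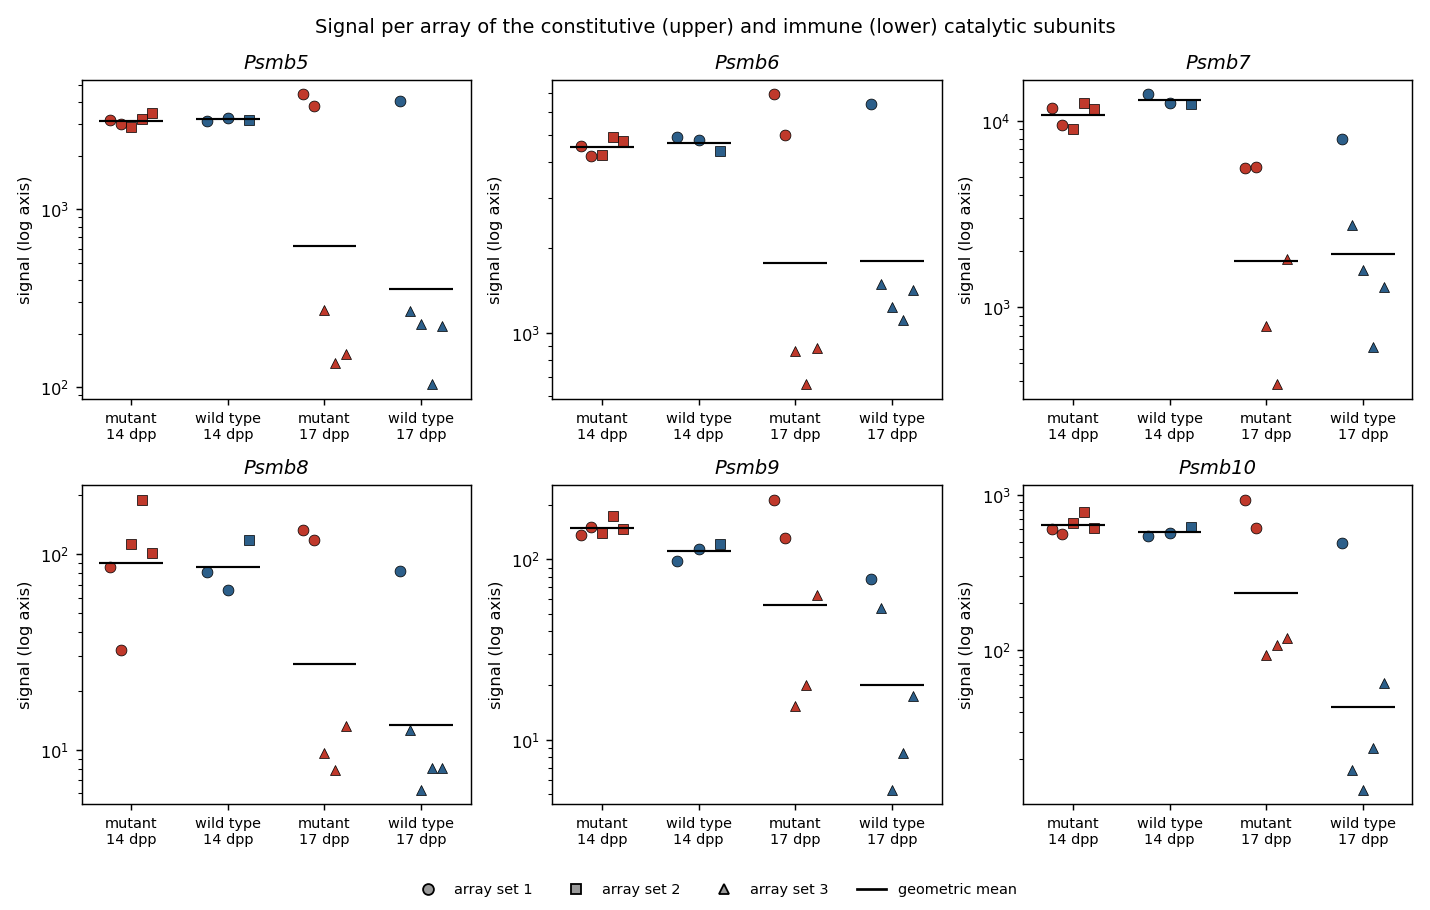
Signal per array on log axes of the constitutive catalytic subunits (upper row) and the immune subunit that takes the place of each (lower row) in mutant and wild-type testes at 14 and 17 dpp, with the array set as the point shape and the geometric mean as a line. At 17 dpp the set 1 arrays stand above the set 3 arrays in each gene and genotype, and Psmb10 lies higher in mutants within each set.

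The mean log2 signal of the 3 immune subunits minus that of the 3 constitutive ones was taken on each array and compared between genotypes as a description, with no test. At 14 dpp it was −4.85, −5.15, −4.46, −4.30 and −4.78 on mutant arrays, against −5.19, −5.16 and −4.75 on wild-type arrays, a difference of 0.33 between the means. At 17 dpp it was −4.22, −4.49, −4.57, −3.66 and −3.76 on mutant arrays, against −5.34, −5.52, −6.67, −5.14 and −5.16 on wild-type arrays, a difference of 1.43, of 0.98 within set 1 and of 1.63 within set 3. The genotypes did not overlap at 17 dpp and overlapped at 14 dpp. In set 3 these values rest on dim probe sets, since Psmb8 and Psmb9 were below the 40th percentile on all 7 arrays and Psmb10 on the 4 wild-type ones, so the differences in set 3 and the absence of overlap at 17 dpp rest in part on probe sets below that percentile. By pair at 17 dpp, the mutant minus wild-type difference was 2.55 for Psmb10 with Psmb7, 1.5 for Psmb9 with Psmb6 and 0.23 for Psmb8 with Psmb5.

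Markers of leukocytes, in which immune subunits are made, were read beside these results. Csf1r, the macrophage growth factor receptor, was the 1 called of 12 leukocyte markers at 17 dpp, with a geometric mean of 3985 in mutant and 2135 in wild-type testes (0.90 ± 0.25, adjusted p = 0.0375; 0.96 ± 0.22 with the block, adjusted p = 0.00581). All 12 had positive 17 dpp differences, with a median of 0.64, against 0.25 over all probe sets, and 5 of the 12 were called with the block (median 0.55). At 14 dpp all 12 were positive too, with a median of 0.35 and 0 called. Their summed signal ran from 7116 to 12079 in mutant and from 3600 to 7101 in wild-type testes at 17 dpp, and from 6573 to 8754 in mutant and from 5371 to 6801 in wild-type testes at 14 dpp; none of the 12 was below the 40th percentile on every array. Sertoli markers had a median of 0.7 at 17 dpp with 0 of 8 called, and 4 of 8 were called higher with the block. Of 12 genes of class I antigen processing and the interferon response, 0 were called at 17 dpp (median 0.50), and Nlrc5, Irf1 and Gbp2 were called higher in mutants with the block (median 0.48). No gene was called at 17 dpp among 4 Leydig (median 1.0), 5 endothelial (0.44), 4 peritubular myoid (0.68), 7 spermatogonial (0.7) and 4 round spermatid markers tested (−0.15). All 8 Sertoli, 4 Leydig, 5 endothelial and 4 peritubular myoid markers also had positive 17 dpp differences. Without the block, the positive sign at 17 dpp was therefore not particular to leukocytes. The blocked difference was negative for 1 Leydig, 1 endothelial and 1 peritubular myoid marker, and for 0 leukocyte and 0 Sertoli markers. At 14 dpp it was negative without the block for 3 Sertoli, 1 Leydig, 1 endothelial and 1 myoid marker, and for 0 leukocyte markers. With the block, Acta2 of the myoid, Zbtb16 and Stra8 of the spermatogonial and Prm2 of the round spermatid markers were called higher in mutants. Over all probe sets 5.33% were called at 17 dpp without the block and 18.8% with it, and the lists were not tested against these shares. The part of leukocytes in the Psmb10 result was not tested.

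The remaining members of the core, its cap and its chaperones showed few calls. The 7 alpha subunits other than Psma8 were not called between genotypes, and the alpha ring as a group had a median of −0.07 at 14 dpp and −0.09 at 17 dpp. The 4 structural beta subunits ran from −0.20 to 0.10 at 14 dpp and from −0.10 to 0.87 at 17 dpp, with none called in either fit. The 6 ATPases of the cap ran from −0.07 to 0.35 at 14 dpp and from −0.69 to 0.73 at 17 dpp, with none called. With the block, the ATPase Psmc3 was called lower in mutants at 17 dpp (−1.32 ± 0.31, adjusted p = 0.00685), from signals of 6193, 5891, 551, 301 and 1024 in mutant testes, against 10412, 2793, 1753, 735 and 1793 in wild-type testes. Within set 1 it differed by −0.79 (adjusted p = 0.738) and within set 3 by −1.52 (adjusted p = 0.0183). Psmc3 had its highest value of each genotype on a set 1 array.

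The 11 non-ATPase subunits of the cap, which include the ubiquitin receptors Psmd2 and Psmd4 and the deubiquitinase Psmd14, ran from −0.27 to 0.27 at 14 dpp and from −0.50 to 1.1 at 17 dpp, with none called. With the block, the lid subunit Psmd6 was called lower in mutants at 17 dpp (−0.48 ± 0.14, adjusted p = 0.0239). Its signal was 6543, 5771, 6015, 4403 and 7011 in mutant testes, against 6840.2, 10407, 8263, 7027 and 9523 in wild-type testes. The groups overlapped, and a second Psmd6 probe set gave 0.38 with the block (adjusted p = 0.793). Within set 1 the first probe set differed by −0.15 (adjusted p = 0.936) and within set 3 by −0.61 (adjusted p = 0.03), and its blocked call was lost in 3 of 10 fits that each left out 1 array (mutant replicate 4, wild-type replicate 2 or wild-type replicate 5). Among the 7 assembly chaperones, Psmd10 (gankyrin), an X-linked gene, was called higher in mutants with the block (0.64 ± 0.22, adjusted p = 0.0481; without it 0.94 ± 0.40, adjusted p = 0.195). Its signal was 1001, 894, 270.1, 254 and 411 in mutant testes at 17 dpp, against 507, 285, 294, 174 and 131 in wild-type testes. Within set 1 it differed by 0.90 (adjusted p = 0.438) and within set 3 by 0.54 (adjusted p = 0.213), and the blocked call was lost in 7 of 10 fits that each left out 1 array of that age (all but mutant replicate 4 and wild-type replicates 2 and 3). At 14 dpp it was 1243, 946, 1079, 1142 and 1088 in mutant testes, against 814, 818 and 828 in wild-type testes, where the groups did not overlap and the test did not call it (0.42 ± 0.46).

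Of the activators beside PA200, Psme1 encodes a subunit of the interferon-induced cap of the immunoproteasome. Its signal at 17 dpp was 2599, 2129.9, 203, 315 and 406 in mutant testes, against 1432, 367, 206, 164 and 133 in wild-type testes. The difference was 1.19 ± 0.66 (adjusted p = 0.344) and 0.60 ± 0.23 with the block (adjusted p = 0.0783), and the groups overlapped. Psme3, the nuclear activator, gave 1116, 899.9, 329, 248 and 635 in mutant testes at 17 dpp, against 944, 634, 497, 228 and 282 in wild-type testes (0.29 ± 0.42, and 0.01 ± 0.27 with the block). Neither was called at 14 dpp.

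Between 14 and 17 dpp, 1 of 46 members was called in mutants, against 1.92% of all probe sets, and 19 in wild type, 5 higher and 14 lower at 17 dpp, against 21.4% of all probe sets. Blocked by array set, the counts were 1 in mutants, against 1.37% of all probe sets, and 3 in wild type, against 7.63% of all probe sets. All 14 dpp arrays lie in sets 1 and 2 and 7 of the 10 arrays of 17 dpp in set 3, so that set 1 alone holds both ages. With the block the calls in wild type were Psma8 (2.01 ± 0.30), Psmc4, an ATPase of the cap (1.31 ± 0.24), and Psmb6 (0.74 ± 0.21), all higher at 17 dpp. Psmc4 was also the call in mutants (0.96 ± 0.22, adjusted p = 0.0372). Its signal on set 1 arrays was 2024 and 3848 at 17 dpp, against 1776 and 1331 at 14 dpp, in mutants, and 4036 at 17 dpp, against 1268 and 1625 at 14 dpp, in wild type. The set 1 arrays of the 2 ages did not overlap for Psmc4 in either genotype.

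Without the block the member with the smallest p for age in mutants was Psma6, an alpha subunit. Its signal was 12326, 11204, 25266, 22602 and 18532 at 17 dpp, against 7742, 7154, 5819.8, 7925 and 6307 at 14 dpp, in mutants (1.30 ± 0.26, adjusted p = 0.0201; 0.61 ± 0.17 with the block, adjusted p = 0.0866). In wild type it was 9163, 20505, 18770.2, 22657 and 22880.2 at 17 dpp, against 7257, 7791 and 7327 at 14 dpp (1.26 ± 0.30, adjusted p = 0.0118; 0.40 ± 0.18 with the block, adjusted p = 0.191). In both genotypes the set 3 arrays were the highest. Psma6 has 4 probe sets, and their mean differed between ages by 0.09 in mutants (adjusted p = 0.806) and by 0.04 in wild type (adjusted p = 0.923). The next smallest in mutants were Psmb7 (−2.60 ± 0.67), the chaperone Psmg4 (−1.33 ± 0.34), Psma3 (0.94 ± 0.28) and Psmc6 (0.52 ± 0.16), none of them called. In wild type, after Psma8, they were the chaperone Psmd5 (−1.37 ± 0.32), Psme1 (−3.24 ± 0.77), Psma6 and Psmb10 (−3.73 ± 0.94), and with the block these were −0.61 ± 0.24, −0.89 ± 0.34, 0.40 ± 0.18 and −0.91 ± 0.53, none called.

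Genes that work with the proteasome were read from lists chosen with earlier results of these data known. Of 14 tested partners, which supply ubiquitin, carry substrates or remove ubiquitin at the cap, 0 were called higher and 1 lower in mutants at 17 dpp, with a median of 0.26, against 0.25 over all probe sets. The call was Uchl5, a deubiquitinase of the cap, with a geometric mean of 2815 in mutant and 6408 in wild-type testes (−1.19 ± 0.28, adjusted p = 0.0152; adjusted p = 3.02e-04 with the block). Its mutant values ran from 1940.4 to 5009 and its wild-type values from 3570.4 to 9516, so the groups overlapped. With the block Uchl5 was lower and Ubqln2 and Txnl1 were higher in mutants. Of all probe sets, 5.33% were called at 17 dpp without the block and 18.8% with it, and the partner counts lay near those shares. Of 11 tested testis or meiotic ubiquitin genes, 0 were called higher and 2 lower in mutants at 17 dpp, with a median of −0.14, while with the block Uchl1 was called higher and Ccnb1ip1, Siah1a, Ube2u and Psmc3ip lower, with a median of −0.05. The 2 were Ube2u, a ubiquitin conjugating enzyme (−6.37 ± 0.94, adjusted p = 2.16e-04; −6.06 ± 0.86 with the block), and Psmc3ip (−2.33 ± 0.26, adjusted p = 9.07e-06; −2.16 ± 0.16 with the block), which is named for binding Psmc3 and is known for its work with the meiotic recombinases. The groups of both did not overlap. At 14 dpp 0 genes of these lists were called.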

How the data were processed

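Per the series' design text, the arrays were processed with Affymetrix GCOS, and per the submitters' processing notes with MAS5, with no version stated. The values deposited are linear signal intensities, 1 per probe set and array, and no normalization between arrays is stated in the sources used here. They were taken to log2 without an offset.

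The table held 45101 probe sets, of which 64 were controls. The filter left 34764 probe sets, and the 40th percentile it rests on ran from 49.2 to 93.4 over the arrays. A fit with limma 3.58.1 in R 4.3.3 estimated a mean for each of the 4 groups from all 18 arrays, with 14 residual degrees of freedom and an intensity trend, two-sided tests and Benjamini-Hochberg adjustment over all tested probe sets at 0.05. Each ± is limma's standard error unless SD is named. A simulated data set with known changes was used to test the scripts. The number of arrays limits the precision.

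Array sets were bounded at β-actin ratios of 1.9 and 10. Where the set was a block it entered as a fixed effect, leaving 12 residual degrees of freedom. Within-set values come from a mean for each group in each set, with 1 common estimate of the spread, so a lone array was assumed to vary like the others.

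Same-numbered mutant and wild-type arrays were checked for pairing by the correlation of their deviations from the group means. At 14 dpp it was 0.283, 0.355 and 0.385, each above 0.1, and differently numbered arrays of 1 set gave 0.288 to 0.384. At 17 dpp it ran from −0.227 to 0.777, and those arrays were not treated as pairs. The numbers come from the sample titles, which name no shared litter or day. At 14 dpp the blocked values change no count of calls.

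Members named with values were Psma8, Psma7, the catalytic beta subunits, the activators, every member called between genotypes and the 5 with the smallest p for age in each genotype. Psmf1, Psmd6, Psmc3, Psmd10, Psmc4 and the members named for their array set difference or their spread are named for values that were seen. From the other lists, called genes were named. Members, lists and the array sets were chosen with earlier results of these data known. The lists were proteasome partners, testis and meiotic ubiquitin genes, class I and interferon genes, and markers of leukocytes, Sertoli, Leydig, endothelial and peritubular myoid cells, spermatogonia, pachytene spermatocytes and round spermatids. Annotation came from the platform's table and RefSeq (GRCm38.p6), and promoter sequences from RefSeq.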

Additional observations from a re-analysis of the deposited data

Results flagged for a closer look

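In 3 catalytic subunits, replicate 1 of the 17 dpp wild-type arrays, the 1 wild-type array of set 1 at that age, lay far above the other 4, which are all of set 3. Psmb5 had 4038 there, with 268.6 the next highest, Psmb6 had 6441, with 1486 the next, and Psmb8 had 82.2, with 12.6 the next. In the 14 dpp mutants replicate 4 lay above the others for Psme1, at 3206, with 2850.1 the next highest. These are 4 of 36 groups of arrays examined, and chance alone sets such an array apart in about 5% of groups.

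The genotype effect on Psma8 differed between the ages when the array set was a block, by −1.66 on the log2 scale (17 minus 14 dpp, limma adjusted p = 0.0114), and was not called without the block (−1.50, adjusted p = 0.176) or within set 1, the set that holds both ages (−0.69 ± 0.39, adjusted p = 1).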

How the results depend on the processing

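Psma8 was called lower in mutants at 14 and 17 dpp under every alternative run, with differences of −2.72 to −2.24 at 14 dpp and −4.14 to −3.85 at 17 dpp when 1 array was left out. The count of members called at 14 dpp was 1 throughout. At 17 dpp, against 2 as reported, it was 8 with the array set as a block, 1 within set 1, 7 within set 3, 5 without set 3, 1 with the mean of each gene's probe sets and 1 with the 17 dpp arrays alone. Leaving out 1 array gave 2 to 5 calls, with the 5 reached without wild-type replicate 1, the 1 wild-type array of set 1, and 6 to 12 calls with the block; leaving out was added with the block after seeing the data (without mutant replicates 1 to 5 it gave 7, 7, 9, 9 and 12, without wild-type replicates 1 to 5 it gave 7, 10, 7, 10 and 6). With the block, 18.8% of all probe sets were called at 17 dpp. For the other 17 dpp counts named here that share is not given. Those counts therefore cannot be read as particular to proteasome genes. The interaction gave 1 call with the block, against 0.

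With the replicate number as a block, limma called 5 members at 17 dpp, Psmb9, Psmb10 and Psme1 higher and Psma8 and Psme4 lower in mutants, and 1 at 14 dpp. The Psma8 to Psma7 ratio then differed by −2.36 at 14 dpp (exact p = 0.25) and −4.56 at 17 dpp (adjusted exact p = 0.125), the smallest its pairs allow. The same holds within sets, with −2.46 in set 1 and −2.46 in set 2 at 14 dpp, and −3.68 in set 1 at 17 dpp. The ratio's difference ran from −2.96 to −2.41 and from −4.86 to −4.3 when 1 array was left out.

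For age in mutants, against 1 call, there were 3 with quantile normalization (2.8% of all probe sets), 7 with a common median (4.96%), 3 with an offset of 16 (4.38%), 5 without set 3, and 0 within set 1 and in an unmoderated 2-way model at a false discovery rate of 0.025. Leaving out 1 array gave 0 to 28, the highest without mutant 17 dpp replicate 1 (set 1). For age in wild type, against 19, there were 9 with a common median (10.7% of all probe sets), 3 with the block, 2 within set 1, 6 without set 3 and 4 in the unmoderated model, and 2 to 31 when 1 array was left out, the highest without wild-type 17 dpp replicate 1. Where no share of all probe sets is given here, the counts cannot be read as particular to proteasome genes. The cause was not tested.

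Of 1158 recomputed values, over 43 pairs of a named member and a comparison, 87 turned sign with neither side called. In these pairs 0 called values turned sign. The pairs leave out Psmb6 for age in wild type, which turned from −1.38 (limma adjusted p = 0.142) to 0.74 with the block (limma adjusted p = 0.0419). The median of all probe sets for age was −0.34 as reported and 0.03 after quantile normalization in mutants, while wild type had −0.44 as reported and −0.01 after it. Members on set 3 arrays near or below the 40th percentile, such as Psmb8 and Psmb9, have little signal over background.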

Other observations

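Of the 53 probe sets that were annotated to a member but did not represent it, some failed the filter and were not tested. Without the block, a single one of those tested was called between genotypes at 17 dpp, where 5.33% of all probe sets were called. It belongs to Psmd13, a subunit of the 19S cap, and was lower in mutants by −1.03 (limma adjusted p = 0.0289) and by −0.99 with the array set as a block (adjusted p = 0.00346). The brighter probe set that represents Psmd13 was not called in either fit. With the block, limma also called other probe sets of Psmb1 (−1.23, adjusted p = 0.0166), Psmg2 (−1.33, adjusted p = 0.011) and Psmd11 (0.58, adjusted p = 0.0476). The next brightest pair of Psme4 was called with the block too. In that fit 18.8% of all probe sets were called, so these calls cannot be read as particular to proteasome genes.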
